A study of Homo sapiens with 44 samples.

Results

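Immediate early response genes are genes that a cell transcribes within minutes of a stimulus, before any new protein has been made. The 10 described here were chosen by symbol, with their levels over the 12 groups of this series already known: FOS, FOSB, JUN, JUNB, EGR1, EGR2, EGR3, ATF3, IER2 and DUSP1. All 10 were found among the 60499 genes of the deposited count table, and all 10 were among the 22955 genes left after a filter on low counts. Because the genes were chosen on these levels, their levels and changes are given as a description without a test. Tests are given for 53 related genes, of which 52 passed the filter.

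FOS and FOSB proteins pair with JUN and JUNB to form AP-1, a transcription factor. EGR1, EGR2 and EGR3 are zinc-finger transcription factors, ATF3 is a stress-responsive relative of AP-1, and DUSP1 is a phosphatase that switches off MAP kinases. Growth factors, Wnt and stress signals, a change of medium and the handling of cells are all known to induce these genes, and their messages decay quickly. A well may therefore show their level at the moment of lysis rather than a lasting state, which was not tested here.

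The cells were H1, a long-established line of human embryonic stem cells, and were led through cardiac differentiation. The 44 libraries, each from its own well, fall into 4 groups of 5 (days 5, 7, 9 and 11) and 8 groups of 3 (pluripotent cells and days 0, 1, 3, 14, 20, 30 and 90). The coating was laminin LN-521 for pluripotent cells and LN-521 with LN-221 from day 0 to day 90. Day 0 wells were in Nutristem medium. Wells of days 1 and 3 were in RPMI medium with insulin-free B27 supplement and CHIR99021, which turns on Wnt signalling by blocking GSK3. Day 5 wells had IWP2, which blocks Wnt production, in the same base medium. Wells of days 7 and 9 had the base medium alone, and those of days 11 to 90 had RPMI with the CTS form of B27. All groups come from 1 cell line, and the labels call the wells biological replicates without saying whether they came from separate cultures, so the spread may be partly technical. The time from the last medium change to lysis is not given in the sources used here, nor is whether day 0 wells had already received CHIR99021.

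Levels are given as CPM, the counts scaled to a common library size, after TMM scaling, a correction for library composition. Total counts per library ran from 6937136 to 33498022 with a median of 26010763, and 3 counts, used here as the limit of detection, stood for 0.0919 to 0.410 CPM. EGR2 had at most 10 counts in 15 wells and EGR3 in 12. The libraries carry no molecular identifiers, so this limit covers counting error only. POU5F1, the pluripotency factor, was between 1467 and 1574 CPM in pluripotent wells and at most 5.47 CPM in every well from day 9 on. TBXT, which marks mesendoderm, reached 272 to 369 CPM at day 1, and cardiac troponin TNNT2 was at most 10.5 CPM in pluripotent wells and between 2513 and 3882 CPM at day 90. In bulk RNA, fewer cells of a type and less RNA per cell cannot be told apart.

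The promoters of 9 of the 10 genes were found in a RefSeq table of GRCh38.p14, as 12 windows that reach from 250 bases before a transcription start to 50 after it. Of these, the 250 bases before the start are shown for 4 genes: EGR1 and FOS, which stood apart between pluripotent and day 0 wells, and JUN and ATF3, which were highest in 1 well of day 30. Capitals mark matches to short motifs, searched on both strands and counted from the transcription start. The EGR1 window (chr5:138465229-138465478, plus strand) holds 2 CArG boxes, the element bound by serum response factor (SRF), at -105 and -83. It also holds the EGR-type motif GCGNGGGCG at -198.
EGR1: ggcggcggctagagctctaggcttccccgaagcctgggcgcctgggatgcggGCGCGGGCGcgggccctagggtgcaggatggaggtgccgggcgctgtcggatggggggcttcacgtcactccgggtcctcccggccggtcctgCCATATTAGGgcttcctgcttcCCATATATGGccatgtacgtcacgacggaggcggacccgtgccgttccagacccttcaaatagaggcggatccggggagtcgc
The FOS window (chr14:75278578-75278827, plus strand) holds the TATA-type motif TATAAA at -33.
FOS: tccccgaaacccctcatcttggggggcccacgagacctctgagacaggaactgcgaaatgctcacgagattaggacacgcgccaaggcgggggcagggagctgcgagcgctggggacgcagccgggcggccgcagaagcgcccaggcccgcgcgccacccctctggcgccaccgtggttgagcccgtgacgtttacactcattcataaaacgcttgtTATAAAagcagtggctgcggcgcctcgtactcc
The JUN window (chr1:58784048-58784297, minus strand) holds TGACATCA, an AP-1 and ATF type element, at -67.
JUN: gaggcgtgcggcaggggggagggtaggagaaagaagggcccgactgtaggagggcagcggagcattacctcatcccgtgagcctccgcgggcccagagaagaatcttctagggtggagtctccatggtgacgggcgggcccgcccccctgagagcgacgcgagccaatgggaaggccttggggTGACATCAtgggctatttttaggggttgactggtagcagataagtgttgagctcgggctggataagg
The first ATF3 window (chr1:212565157-212565406, plus strand) holds the same element, TGACATCA, at -123.
ATF3: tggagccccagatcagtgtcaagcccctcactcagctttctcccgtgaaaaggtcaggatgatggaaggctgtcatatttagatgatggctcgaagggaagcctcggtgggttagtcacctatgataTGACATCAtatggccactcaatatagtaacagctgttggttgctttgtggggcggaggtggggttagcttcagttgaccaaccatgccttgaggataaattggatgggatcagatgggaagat

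Over all 35116 promoter windows of the table, 1.29% held a CArG box, 9.43% held GCGNGGGCG, 11.5% held TATAAA and 2.61% held TGACATCA. A CArG box was also in an EGR2 window, and GCGNGGGCG, on the other strand, was in another EGR2 window. TATAAA was in the DUSP1, JUNB and FOSB windows and in a second ATF3 window, and DUSP1 held TGACGTCA, which 1.85% of all windows hold. The AP-1 motif TGANTCA, which 7.71% of windows hold, was in none of the 12. These matches describe letters in the windows and were not set against binding data.

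Several libraries stood apart from the others of their group. For the 10 genes, the larger changes printed here that 1 of them moves by over 1.5 times are also given without it. Changes of related genes are given with all libraries, and some of their calls are lost without 1 well. At day 30, replicate 3 was the highest of the 3 wells for 10 of 10 genes, and 217 of 11866 expressed genes (1.83%) were at least 4-fold above both other wells there. At day 20, replicate 3 was the lowest for 10 of 10. Day 14 replicate 6 was the highest for 9 of 10, and day 1 replicate 2 and day 3 replicate 1 were each the lowest for 9 of 10. At day 9, replicate 4 was the highest and replicate 10 the lowest for 8 of 10 each. Day 1 replicate 3 was the highest for 8 of 10. The same counts over all genes are not given here. Day 11 held 2 kinds of well. Cardiomyocyte markers (5 genes, TNNT2 among them) summed to 7230 and 4681 CPM in replicates 1 and 2 against 17422 to 18601 CPM in replicates 5, 6 and 7, while endoderm and liver markers (5 genes, AFP among them) summed to 4848 and 8730 CPM against 234 to 304 CPM. Blood and macrophage markers stayed at 6.63 CPM or less in every well, and the leukocyte gene PTPRC was at most 0.596 CPM. The libraries with the fewest counts, at days 14, 20 and 30, had RNA integrity numbers from 7.4 to 8.2, against a median of 9.65.

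**Figure D1:**
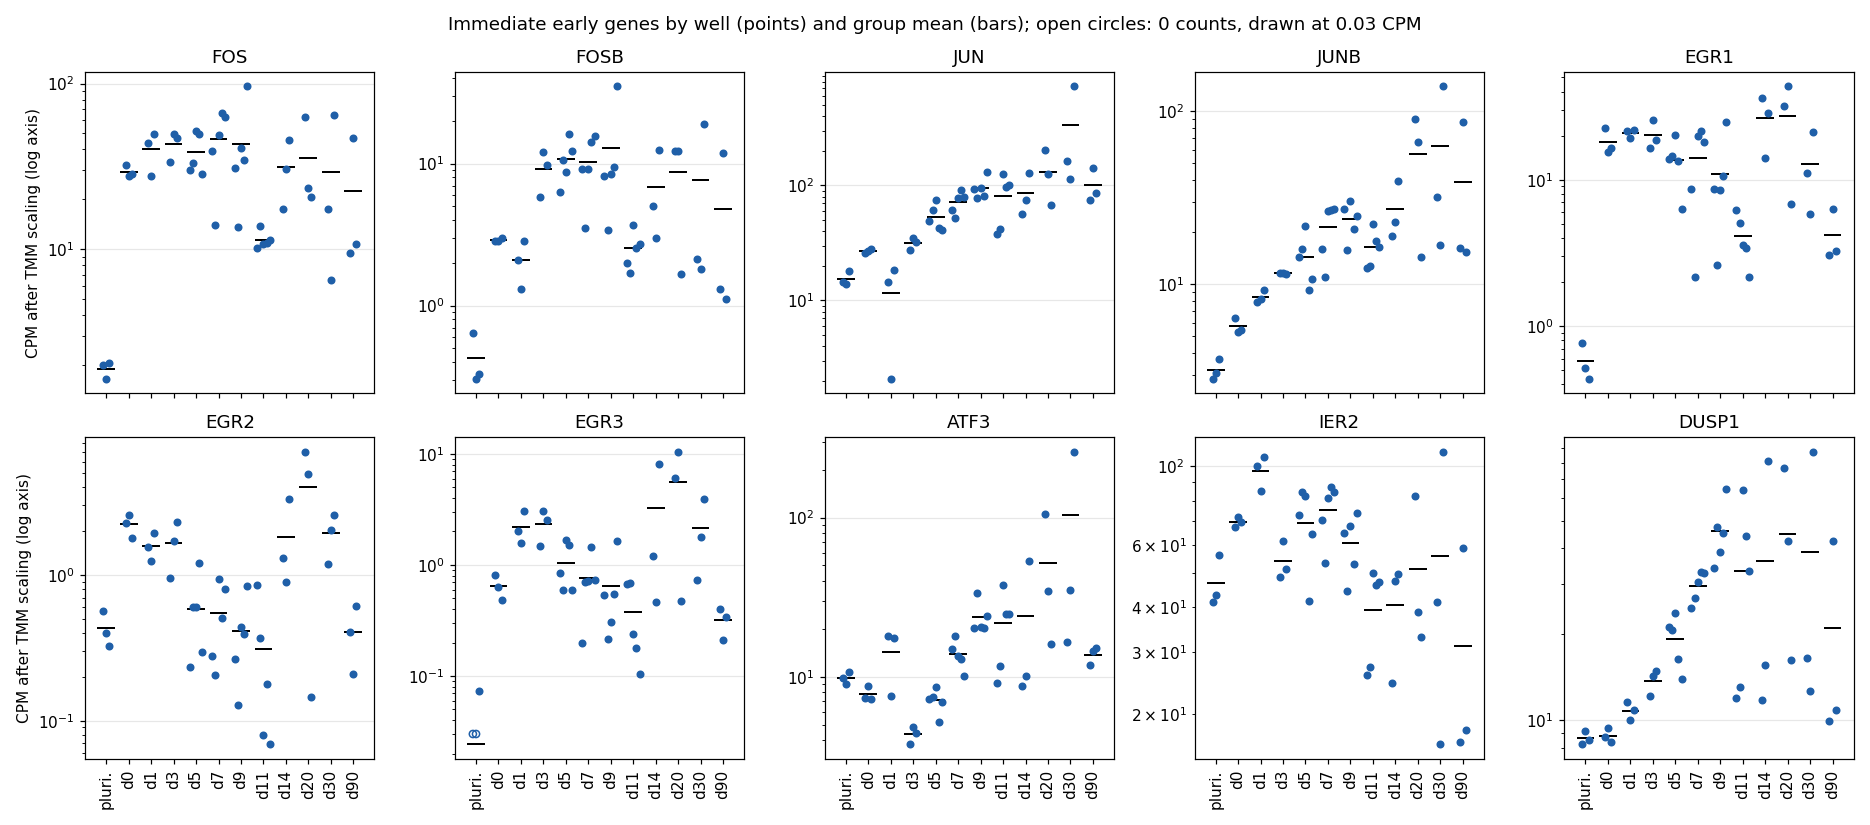
CPM (log axis) of the 10 immediate early genes in each of 44 wells (points) with group means (bars), in 12 groups from pluripotent to day 90. FOS and EGR1 lie far lower in pluripotent wells than in any other group, JUNB and DUSP1 climb in small steps to day 9, and the wells of days 14 to 90 are spread widely.

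FOS, the founding AP-1 gene, was at 2.01, 1.65 and 2.04 CPM in the 3 pluripotent wells and at 32.0, 27.6 and 28.4 CPM at day 0. The pluripotent wells lay below every well of every other group. Day 1 wells read 43.6, 27.6 and 49.8 CPM and day 3 wells 33.6, 49.3 and 46.8 CPM. Group means then stayed between 38.6 and 46.3 CPM through day 9. At day 11 the 5 wells held 10.2, 13.8, 10.7, 10.9 and 11.4 CPM, all below every well of days 0 to 5. Among the 12 groups ordered by mean, from 46.3 ± 21.2 CPM at day 7 (SD, n = 5) down to 1.90 ± 0.215 CPM in pluripotent cells (SD, n = 3), only the last step separated neighbours without overlap.

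FOSB, the less abundant FOS relative, was at 0.643, 0.306 and 0.328 CPM in pluripotent wells and at 2.85, 2.86 and 2.97 CPM at day 0. It did not keep pace with FOS at day 1, where the wells held 2.09, 1.32 and 2.83 CPM, just under the day 0 wells. On TPM the FOSB wells of days 0 and 1 overlapped. At day 3 the wells held 5.80, 12.1 and 9.74 CPM, above every earlier well. Day 9 replicate 4 reached 34.8 CPM, with the next well at 9.52 CPM. The FOSB gene overlaps ERCC1 on the opposite strand, and since the use of strand in counting is not given in the sources used here, its low levels are uncertain.

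JUN, the main partner of FOS in AP-1, was at 14.5, 13.8 and 18 CPM in pluripotent wells and at 25.7, 27.0 and 27.8 CPM at day 0. At day 1 it was lower in every well than at day 0, with 14.4, 2.09 and 18.5 CPM. The value of 2.09 CPM came from replicate 2, where 24 of 11342 expressed genes were at least 4-fold below both other wells and JUN was the only one of the 10. From day 3 on the mean was higher, from 31.5 ± 4.03 CPM (SD, n = 3) at day 3 to 95.4 ± 21.1 CPM (SD, n = 5) at day 9. The day 5 wells, from 41.1 to 74.5 CPM, lay above all day 3 wells, from 27.2 to 35.2 CPM. The highest mean, 335 ± 340 CPM (SD, n = 3) at day 30, came from wells of 164, 115 and 726 CPM.

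JUNB, which can both assist and oppose JUN, went up in 3 separate steps. Group means were 3.21 ± 0.451 CPM in pluripotent cells, 5.73 ± 0.593 at day 0, 8.43 ± 0.697 at day 1 and 11.6 ± 0.145 at day 3 (SD, n = 3 each), and no well of one group overlapped the next. From day 5 the wells overlapped, with 9.22 to 21.6 CPM at day 5 and 15.8 to 30.2 CPM at day 9. JUNB overlaps HOOK2 on the opposite strand.

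EGR1 was at 0.764, 0.521 and 0.437 CPM in pluripotent wells and at 22.5, 15.5 and 16.4 CPM at day 0, and every pluripotent well lay below every well of all other groups. It held at 20.9 ± 1.46 CPM at day 1 and 20.3 ± 4.72 CPM at day 3 (SD, n = 3 each). By day 11 the 5 wells had 6.25, 5.07, 3.55, 3.43 and 2.18 CPM, all below every well from day 0 to day 5. At day 14 the wells read 36.1, 14.0 and 28.7 CPM, so that EGR1 and FOS were both back above all day 11 wells. At day 20 they read 32.0, 43.4 and 6.83 CPM, and at day 90 they read 3.05, 6.33 and 3.25 CPM.

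EGR2 and EGR3 are related factors with far fewer counts than EGR1. EGR2 was at 0.563, 0.398 and 0.328 CPM in pluripotent wells and at 2.28, 2.60 and 1.80 CPM at day 0. EGR3 had at most 2 counts in any pluripotent well and was at 0.805, 0.632 and 0.483 CPM at day 0. Summed over wells that was 57 counts against 2. EGR3 was higher again at day 1 in every well, with 2.02, 1.57 and 3.05 CPM, when EGR2 was not. Like EGR1, both had their highest mean at day 20, where EGR2 had 6.98, 4.92 and 0.146 CPM and EGR3 had 6.02, 10.4 and 0.475 CPM. The low well in both cases was replicate 3, which was the low well for EGR1 too.

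ATF3 was the 1 gene of the 10 that was lower on CPM in every day 0 well than in the pluripotent wells. It was at 9.81, 9.07 and 10.8 CPM in pluripotent wells and at 7.35, 8.75 and 7.22 CPM at day 0. The fitted log2 change was small, at -0.35, and on TPM the wells of these 2 groups overlapped. Day 1 wells held 18, 7.55 and 17.6 CPM. On CPM, day 3 was its lowest group, with 3.77, 4.84 and 4.41 CPM, below every well of every other group. On TPM its day 3 mean was 2.95, above the means of 2.66 at day 5 and 2.74 at day 90. At day 9 the wells had 20.4, 33.4, 20.4, 20.4 and 24.1 CPM, all above the day 7 wells, which ran from 10.1 to 18.1 CPM. On TPM the wells of these days overlapped.

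IER2, a nuclear protein gene of the early response, had a highest group mean on CPM 3.11 times its lowest, against 5.34 for DUSP1 and 24.4 for FOS. On TPM the group means ran from 4.54 to 30.3 for IER2 and from 2.68 to 16.1 for DUSP1, so there IER2 had the wider range. IER2 was at 41.3, 43.4 and 56.0 CPM in pluripotent wells and at 67.6, 72.0 and 69.8 CPM at day 0. At day 1 it was at 99.8, 85.1 and 106 CPM, and each of these groups lay above the one before. In the order of its 12 group means, all 11 neighbouring pairs overlapped. DUSP1, the phosphatase, did not differ between pluripotent wells (8.24, 9.16 and 8.49 CPM) and day 0 wells (8.73, 9.42 and 8.36 CPM) beyond their overlap. It then climbed to 10.8 ± 0.782 CPM at day 1 and 13.8 ± 1.41 CPM at day 3 (SD, n = 3 each), and to 19.2 ± 3.99, 29.6 ± 3.70 and 46.1 ± 11.5 CPM at days 5, 7 and 9 (SD, n = 5 each). The lowest day 7 well, 24.8 CPM, lay above the highest day 5 well, 23.8 CPM, and the lowest day 9 well, 34.2 CPM, above the highest day 7 well, 33 CPM. On TPM the DUSP1 wells of days 5, 7 and 9 overlapped. Both genes overlap an antisense gene. Over all 10 genes, 95 of 110 neighbouring pairs in the order of group means overlapped and 15 did not. The neighbours were set by ranking these same means, and no share over all genes is given for this measure. The count therefore describes the spread and is no trait of these genes.

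Relative abundance was compared per length, as TPM within a library. IER2 had the highest TPM of the 10 in 3 of 3 wells in each of the pluripotent, day 0 and day 1 groups. FOS ranked first by median from day 3 to day 9 and at day 14, and JUN ranked first by median at days 11, 20, 30 and 90. FOS was the highest in 3 of 3 wells at day 3, 3 of 5 at day 5, 4 of 5 at days 7 and 9 and 2 of 3 at day 14. JUN was the highest in 3 of 5 wells at day 11, 1 of 3 at day 20, 3 of 3 at day 30 and 2 of 3 at day 90. The ratio of JUN to FOS in TPM had a median of 4.04 in pluripotent wells, 0.334 at day 0 and 0.143 at day 1. By day 9 it was 0.725, and day 11 had 2.91, day 14 had 0.953, day 20 had 1.27, day 30 had 4.27 and day 90 had 3.49. The ratio of ATF3 to FOS had a median of 5.42 in pluripotent wells, 0.117 at day 3 and 3.49 at day 30. For FOSB over FOS the medians lay between 0.0297 at day 1 and 0.168 at day 5.

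**Figure D2:**
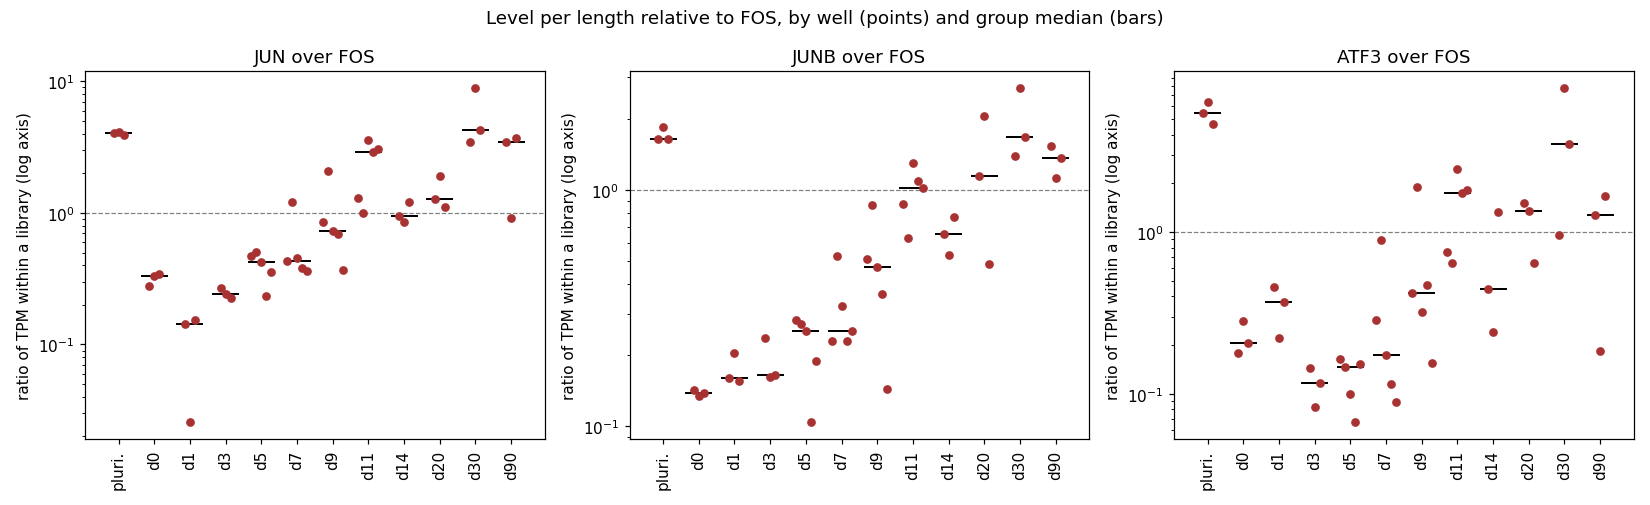
Ratio of JUN, JUNB and ATF3 to FOS in TPM within each library (log axis), by well (points) and group median (bars), with a dashed line at equal levels. All 3 ratios are above 1 in pluripotent wells, below 1 in every well from day 0 to day 5, and higher again by day 11.

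Every day 0 well was above every pluripotent well for 8 genes and below for 1 (ATF3), while DUSP1 overlapped. Over all genes tested 2.91% were called in this comparison (2.73% higher and 0.183% lower), where called means an adjusted p under 0.05 and a log2 change of at least 1. Separation of wells is a looser measure, and 47.8% of all genes tested had wells that did not overlap here (23.6% higher and 24.2% lower). The fitted log2 changes were 4.98 ± 0.75 for EGR1 and 3.95 ± 0.69 for FOS (± SE), then 2.77 for FOSB and 2.36 for EGR2, and between 0.57 and 0.83 for JUN, JUNB and IER2. Lanes 1 and 4 each held a well of both groups, and within them the FOS ratio was 16 and 16.7 and the EGR1 ratio 29.4 and 29.8. Summed heat shock genes (8 genes) went the other way, from 5557 to 6212 CPM in pluripotent wells to 3902 to 4094 CPM at day 0. Their part in the result was not tested. On TPM the sign of the DUSP1 difference was the opposite, and the ATF3 wells overlapped.

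Of the 52 related genes 3 were called at day 0 against pluripotent cells, and all 3 rose. They belong to the list of 20 feedback and effector genes, whose median log2 change was 0.75, against 0 for all genes tested. DUSP6, a phosphatase that inactivates ERK and is itself induced by ERK signalling, rose from 5.11 to 33 CPM (log2 2.69 ± 0.36 SE, adjusted p = 9.1e-06). BTG2, an antiproliferative gene, rose from 2.01 to 6.02 CPM (log2 1.58 ± 0.27 SE, adjusted p = 0.00033). RHOB, a small GTPase, rose by log2 1.38 ± 0.40 SE (adjusted p = 0.033), a call that held in 8 of 17 other settings. A fit of these 2 groups alone called 12 related genes.

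At day 1, after CHIR99021, JUNB, EGR3, IER2 and DUSP1 were higher than at day 0 in every well. JUN and FOSB were lower in every well, while FOS, EGR1, EGR2 and ATF3 overlapped. For FOSB the highest day 1 well, 2.83 CPM, was close to the lowest day 0 well, 2.85 CPM, and on TPM its wells overlapped. The background was 13.5% of all genes called, 3.86% higher and 9.66% lower. Wells of 55.3% of all genes did not overlap, 25.9% higher and 29.4% lower, a share near that of the 10 genes. JUN had a log2 change of -1.2 ± 0.53 and EGR3 one of 1.78 ± 0.84 (± SE). Without day 1 replicate 2 the JUN change was -0.66. Among the related genes 7 rose and 1 fell. DUSP4 rose by log2 2.87 ± 0.55 SE (adjusted p = 0.00017). IER3, an early gene that affects cell survival, rose from 8.40 to 52.9 CPM (log2 2.65 ± 0.53 SE, adjusted p = 0.00029). The MAP kinase phosphatases DUSP5 (1.79) and DUSP6 (1.18), the stress-response gene GADD45B (1.85), RHOB (1.57) and KLF10 (1.16), a target of TGF-beta, also rose, KLF10 with a call that held in 8 of 17 other settings. The kinase gene SGK1 fell from 46.3 to 8.0 CPM (log2 -2.53 ± 0.37 SE, adjusted p = 3e-06). A fit of these 2 groups alone called 13.

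Between day 1 and day 3, both under CHIR99021, FOSB, JUN, JUNB and DUSP1 were higher in every well and ATF3 and IER2 were lower in every well, and the other 4 overlapped. Over all genes 17.8% were called, 11.0% higher and 6.80% lower, and for 57.0% the wells did not overlap. The log2 changes were 2.14 for FOSB, 1.43 for JUN, -1.73 for ATF3 and -0.85 for IER2. Without day 1 replicate 2 the JUN value was 0.92. EGR1 changed sign on TPM, as did EGR3, with log2 values on CPM of -0.05 and 0.09. The ATF3 wells of the 2 days overlapped on TPM, at 2.40 to 3.64 for day 3 and 3.44 to 9.08 for day 1. Among the related genes 7 rose and 5 fell. BTG2 rose most, from 6.43 to 30.0 CPM (log2 2.22 ± 0.25 SE, adjusted p = 1.2e-08), followed by the kinase gene PLK2 (2.14). MAPK3, which encodes the kinase ERK1, rose by log2 1.24 ± 0.18 SE (adjusted p = 9.4e-07). KLF4 fell most (-2.40 ± 0.64 SE, adjusted p = 0.0039), and MYC (-1.56), DUSP2 (-1.56), SIK1 (-1.48) and RHOB (-1.04) fell as well. The call of DUSP2 held in 7 of 17 other settings and those of SIK1 and RHOB in 10. Among 8 heat shock genes HSPH1 (-1.57) and HSPA8 (-1.05) fell in the same step, and their part in the lower ATF3 and IER2 levels was not tested. Leaving out 1 well at a time gave 4 to 8 called genes, the fewest without day 3 replicate 2, and BTG2, PLK2 and MAPK3 were called in all 17 other settings.

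After IWP2 replaced CHIR99021, the day 5 wells overlapped the day 3 wells for 8 of the 10 genes, and JUN and ATF3 were higher in every well. Among all genes tested 10.1% were called, 5.75% higher and 4.34% lower, and 34.3% had wells that did not overlap. EGR2 (-1.49 ± 0.67) and EGR3 (-1.17 ± 0.71, ± SE) had the largest log2 differences, while FOS was at -0.17. On TPM, JUNB and ATF3 changed sign, where expressed genes shifted by a median log2 of -0.31 against CPM. Among the related genes 5 rose and 1 fell. KLF2, a factor known from flow-exposed endothelium, rose from 0.104 CPM, near the limit of detection, to 2.85 CPM (log2 4.73 ± 0.56 SE, adjusted p = 6.1e-08). FOSL2, another FOS relative, rose by 2.43, DUSP2 by 1.66, NFKBIZ by 1.31 and DUSP6 by 1.29 to 278 CPM. MYC fell by a further 1.55 on the log2 scale. The count was 12 in a fit of these 2 groups alone.

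From day 5 to day 9, as cardiac genes came up, 3 genes were higher in every well on CPM, and the other 7 overlapped. The 3 were ATF3 (log2 1.74 ± 0.50), DUSP1 (1.26 ± 0.48) and JUN (0.83 ± 0.40, ± SE). On TPM the wells of all 3 overlapped. The lowest day 9 well and the highest day 5 well were at 3.89 and 3.93 TPM for ATF3. They were at 5.30 and 6.53 TPM for DUSP1 and at 7.49 and 11.2 TPM for JUN. The share of all genes called was 10.2%, with 6.84% higher and 3.39% lower, and 21.1% did not overlap. Among the related genes 10 were called and all 10 rose. CTGF, a matrix-associated target of YAP and SRF signalling, rose from 34.5 to 141 CPM (log2 2.03 ± 0.63 SE, adjusted p = 0.019). SIK1 rose by 1.94, BATF3 by 1.68, PLK2 by 1.46 and CYR61 by 1.39. NAB1, a corepressor that binds EGR proteins, rose from 50.9 to 108 CPM (log2 1.08 ± 0.16 SE, adjusted p = 2.3e-06). Without day 9 replicate 10 the count was 6. With limma on TPM 0 related genes were called, 8 had an unadjusted p under 0.05, DESeq2 called 12, and the share of calls that were higher over all genes went from 66.9% to 42.0%. Of the 8 heat shock genes HSPB1 alone was called higher, by log2 2.59.

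From day 9 to day 11, the medium changed to the CTS form of B27, and FOS, FOSB and EGR1 had the largest differences. FOS had a log2 change of -1.92 ± 0.48, FOSB -2.34 ± 0.63 and EGR1 -1.44 ± 0.49 (± SE), although for all 10 genes the wells overlapped. Without day 9 replicate 4 the values were -1.40, -1.54 and -0.90, EGR2 was at -0.04 and EGR3 at -0.12. The day 9 FOS wells were 31.1, 13.6, 40.8, 34.8 and 96.0 CPM, and the overlap with day 11 rests on the well of 13.6 CPM, replicate 10. Over all genes tested, 1.63% were called, 0.396% higher and 1.24% lower, and 6.28% did not overlap. In each of the 4 lanes with a well of both groups FOS and EGR1 were lower at day 11, with ratios from 0.144 to 0.838 for FOS and from 0.205 to 0.834 for EGR1. The 2 kinds of day 11 well differed for other genes. JUN was at 37.9 and 41.7 CPM in replicates 1 and 2 and at 126, 96.9 and 101 CPM in replicates 5, 6 and 7, and DUSP1 was at 11.9 and 13.1 CPM against 64.2, 44.2 and 33.2 CPM. EGR1 had the opposite order, with 6.25 and 5.07 CPM against 3.55, 3.43 and 2.18 CPM. Without replicates 1 and 2 the FOS change was -1.98 and the EGR1 change -1.86, while EGR2 went from -0.47 to -1.94 and EGR3 from -0.82 to -1.90, so both rest on which wells are kept. The part of the marker differences in these values was not tested.

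Of the related genes 2 were called at day 11 against day 9, and both fell. DUSP6 fell from 180 to 78.4 CPM (log2 -1.2 ± 0.26 SE, adjusted p = 0.0061). PLK2 fell by 1.2 on the log2 scale (adjusted p = 0.032). In 5 of 10 fits that left out 1 well the count was 1.

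Days 14 to 90 differed from the earlier groups by their spread. The median coefficient of variation of the 10 genes was 14.5% in the 4 groups up to day 3, 33.4% in days 5 to 11 and 81.2% in days 14 to 90. A wider late spread was not particular to these genes. The share of all expressed genes at least 4-fold above both other wells was at most 0.0257% in any well up to day 3. It was up to 1.83% in a well of days 14 to 90. In several groups a single well stood apart, not always for the same genes. Day 30 replicate 3 was the highest well and day 20 replicate 3 the lowest for all 10 genes. At day 20, FOSB was at 12.3, 12.3 and 1.68 CPM and JUNB at 89.6, 66.3 and 14.3 CPM. In day 14 replicate 6, ATF3 was at 53.4 CPM against 8.74 and 10.1 CPM, DUSP1 at 80.9 CPM against 11.8 and 15.6 CPM and EGR3 at 8.05 CPM against 1.21 and 0.467 CPM, but IER2 was at 49.7 CPM against 24.5 and 47.6 CPM. In day 90 replicate 4, FOS was at 47.2 CPM against 9.50 and 10.8 CPM and JUNB at 86.1 CPM against 16.1 and 15.4 CPM. In that same well ATF3, at 14.5 CPM, lay between the others, at 11.8 and 15.1 CPM, and EGR2 was the lowest, at 0.209 CPM against 0.403 and 0.616 CPM. Summed heat shock genes were highest in day 14 replicate 6, at 6258 CPM against 2645 and 2881 CPM, but lowest in day 90 replicate 4, at 2538 CPM against 2731 and 3008 CPM. Fibroblast and epicardial markers summed to 2154 CPM in that day 90 well against 12563 and 6404 CPM, and their part was not tested.

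**Figure D3:**
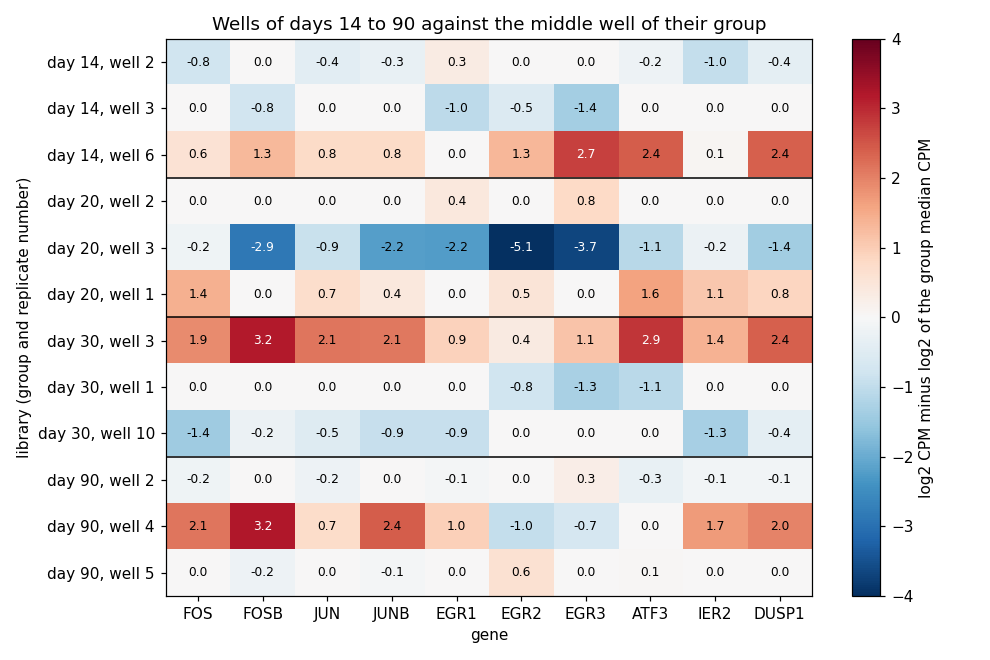
log2 CPM of each immediate early gene in the 12 wells of days 14, 20, 30 and 90, minus log2 of its group's median CPM, in colour and figures. Day 30 well 3 is above the median well for 10 of 10 genes, day 20 well 3 is below for 10 of 10, and day 90 well 4 is high for FOS, FOSB, JUNB, IER2 and DUSP1 but not for EGR2, EGR3 or ATF3.

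At day 30, 8 of the 10 genes had a fitted log2 change of at least 1 over day 11, but only EGR2 and EGR3 were higher in every well. All genes tested had 11.5% called, 6.01% higher and 5.50% lower, and 15.8% did not overlap. Replicate 3 had 726 CPM of JUN against 164 and 115 CPM, 258 CPM of ATF3 against 16.6 and 35.3 CPM, and 139 CPM of JUNB against 32.0 and 16.9 CPM. It had 64.3 CPM of FOS against 17.4 and 6.48 CPM, and 87.2 CPM of DUSP1 against 16.5 and 12.7 CPM. Without it the log2 change went from 2.05 to 0.77 for JUN, from 2.25 to 0.24 for ATF3, from 1.37 to 0.06 for FOS and from 1.60 to -0.39 for FOSB. EGR2 went from 2.66 to 2.35 and EGR3 from 2.54 to 1.70. That library had 23661479 counts and an RNA integrity number of 10. Its heat shock genes summed to 4879 CPM against 3168 and 2547 CPM, its cardiomyocyte markers to 6294 CPM against 10256 and 11079 CPM, and its fibroblast and epicardial markers to 5880 CPM against 3171 and 2446 CPM. Their part in these levels was not tested.

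Of the related genes 18 rose and 1 fell at day 30 against day 11. The lists of other early transcription factors (4 of 12) and of feedback and effector genes (10 of 20) held most of the rises. NR4A3, an orphan nuclear receptor, rose most (log2 4.09 ± 0.78 SE, adjusted p = 0.00017), with NR4A1 (2.59) beside it, and TRIB1 (2.5), IER3 (2.46), CTGF (2.03) and ZFP36 (1.81), which destabilises early messages, rose too. SRF itself rose by 1.16. Over 19 other settings the log2 change ran from 0.97 to 4.78 for NR4A3 and from -0.30 to 3.11 for NR4A1. It ran from 0.05 to 2.21 for ZFP36 and from 0.14 to 1.70 for SRF. Each of these calls was lost without day 30 replicate 3. Replicate 3 was the highest well for 43 of 53 related genes, with 155 CPM of NR4A1 against 6.88 and 8.75 CPM, and without it the count was 2. A fit of these 2 groups alone called 5 related genes and limma on TPM called 4. DUSP6 was the 1 gene called with and without that well, and it fell from 78.4 to 18.3 CPM (log2 -2.09 ± 0.33 SE, adjusted p = 1.1e-05, and at most 0.013 in 19 other settings).

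At day 90, ATF3, EGR2 and EGR3 were lower than at day 30 in every well, and the other 7 genes overlapped. Across all genes 5.09% were called, 2.65% higher and 2.44% lower, and 13.8% did not overlap. The log2 changes were -2.91 for ATF3, -2.72 for EGR3 and -2.20 for EGR2, and without day 30 replicate 3 the ATF3 change was -0.92 and the EGR3 change -1.92. JUN was at 74.7, 142 and 85.5 CPM. FOS had a log2 change of -0.40 with all wells, 0.86 without day 30 replicate 3 and -1.51 without day 90 replicate 4, so its direction rests on single wells. Lane 4 was the 1 lane with a well of both groups, day 90 replicate 4 and day 30 replicate 10, and there FOS was 7.28-fold higher at day 90 while ATF3 was at 0.410 of its day 30 level.

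Of the related genes 14 were called at day 90 against day 30, and all 14 fell. TRIB1 fell from 229 to 36.6 CPM (log2 -2.65 ± 0.53 SE, adjusted p = 0.0013). DUSP6 fell to 6.07 CPM (log2 -1.60 ± 0.36 SE, adjusted p = 0.0039), DUSP4 fell by 2.36 and CSRNP1 by 2.23. Over 17 other settings the log2 change ran from -2.82 to -0.37 for DUSP4 and from -2.72 to 0.21 for CSRNP1. The calls of TRIB1, DUSP6, DUSP4 and CSRNP1 were each lost without day 30 replicate 3. EGR4 had 0 counts in every day 90 well and was at least 3.03-fold lower, with the day 90 level set at 3 counts per library. That call held in 6 of 14 other settings. The call rests on day 30 replicate 3: without it 2 genes were called, ELK3 among them, and without day 30 replicate 10 there were 22. An edgeR fit of these 2 groups alone called 0, with 8 at an unadjusted p under 0.05, while DESeq2 called 14. On TPM expressed genes shifted by a median log2 of -0.94 against CPM in this comparison, and 5 related genes were called.

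**Figure D4:**
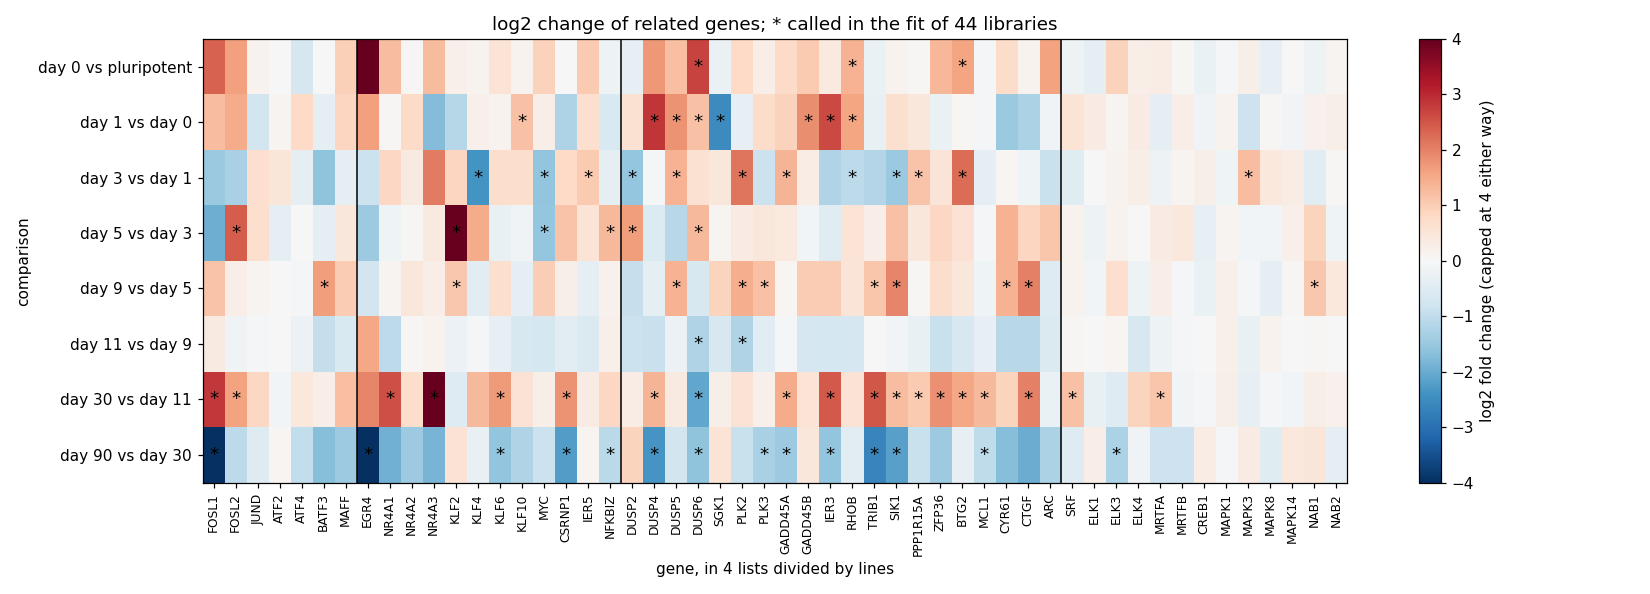
log2 change of the 52 related genes that were tested (columns, in 4 lists divided by lines) over 8 comparisons (rows), in colour, with a star where the gene was called. The comparison of day 30 with day 11 holds 18 rises and 1 fall (DUSP6), and that of day 90 with day 30 holds 14 falls.

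Within groups, the deviations of the 10 genes were positively correlated for every pair, to differing degrees. Over the 45 pairs, the correlation of their deviations from the group means (log2 of CPM + 1, 44 wells) had a median Pearson r of 0.621, and it ran from 0.143 for EGR1 with ATF3 to 0.880 for JUNB with IER2. FOS and FOSB had 0.849, EGR2 and EGR3 had 0.836, and ATF3 and DUSP1 had 0.833. The median over levels, with the differences between groups left in, was 0.426. These values are a description: values of 1 library share its depth and composition.

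**Figure D5:**
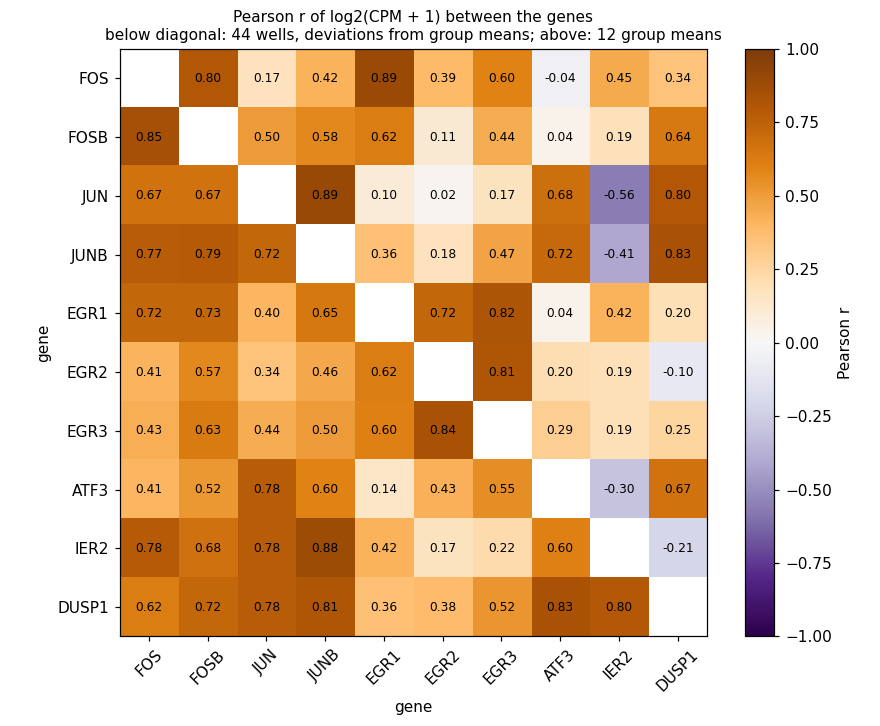
Pearson r between the immediate early genes on log2(CPM + 1), below the diagonal over 44 wells as deviations from group means and above it over 12 group means. Within groups all 45 pairs are positive, from 0.143 to 0.880, whereas over group means 6 pairs are negative, 4 of them with IER2.

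Genes most like each of 4 members, from the 5 with the highest value, were taken from 11813 protein-coding genes by Pearson r over 44 wells, as a description. For FOS levels they were GOLGA8B (0.870), PARP6, NBPF12, FNBP4 and PCGF3, and for FOS deviations from group means ARHGEF10 (0.902), LUC7L, SRSF5, RBM6 and GOLGA8B. GOLGA8B and NBPF12 belong to families of near-identical copies, so their counts are uncertain. For EGR1 they were KMT2B (0.805), MLXIP, ZNF384, ZDHHC11 and FAM193A by level and CNOT3 (0.863), RBM25, NCBP3, SCAF4 and SETD1A by deviation. For JUN they included TBC1D25 (0.911), FLNC, SAMD4A and PALLD by level and PALLD (0.859), DDIT3, ZNF316, PDLIM7 and HSPA1A by deviation. For ATF3 they included BCAR1 (0.894), DUSP14, TNFRSF12A and THBS1 by level and DAPK3 (0.955), RELB, SRF, TNFRSF12A and SQSTM1 by deviation.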

How the data were processed

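RNA of 44 wells was measured. Per the labels' protocols, stranded total-RNA libraries were read as 150 bp pairs with 10 libraries per lane. The submitters' processing notes name cutadapt, STAR 2.5.2b, RSEM 1.2.31 and hg38, while the annotation and the use of strand in counting are not given in the sources used here. The authors deposited estimated counts per gene (expected counts, 93.8% whole numbers), TPM scaled per transcript length, and an RNA integrity score, a lane and a sequencing batch for each library, with all 44 in batch 1. The 10 genes and the related lists were chosen with earlier results of these data known. Symbols came from GENCODE 29 (56769 of 60499 identifiers matched).

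Estimated counts were rounded, filtered with filterByExpr and scaled by TMM. edgeR 4.0.16 (R 4.3.3) fitted all 44 libraries by quasi-likelihood with a mean for each group, and p values were adjusted by Benjamini-Hochberg over 22955 genes. Called means an adjusted p under 0.05 with a log2 change of at least 1. Neighbouring comparisons share a group, so they are not independent. The related genes named are, for each comparison, those with the largest rise and fall and others of the lists. The steps were tested on simulated counts. Where a group had 0 counts, 3 counts per library stood in for it. Alternatives included DESeq2 1.42.0, RLE scaling, other filters, lane or replicate as a term, limma 3.58.1 on TPM, and leaving out libraries. Leaving out the libraries under 15000000 counts, or day 11 wells 1 and 2, was chosen after seeing the data. Some genes most like JUN and ATF3 are not reported here. No library pair within a group agreed within counting noise.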

Additional observations from a re-analysis of the deposited data

Results flagged for a closer look

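In groups of 5 wells, 2 of 40 sets of values (10 genes in 4 groups) had a well whose gap to the next exceeded Dixon's critical value. Chance gives about 1 in 20 for independent sets, but these sets share libraries, so the values are a description. Both were day 9 replicate 4, a library of 27720833 counts with an RNA integrity number of 10. FOSB was at 34.8 CPM there with the next well at 9.52 CPM, and EGR3 was at 1.63 CPM with the next well at 0.551 CPM.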

How the results depend on the processing

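Numbers of related genes called follow the order of the 8 comparisons, from day 0 against pluripotent cells to day 90 against day 30. With limma on log2(TPM + 1) the related genes called were 1, 4, 3, 2, 0, 0, 4 and 5, and with a pseudocount of 0.1 they were 1, 4, 2, 0, 0 and 4 at days 0, 3, 5, 9, 11 and 30. Where limma gave 0, the related genes at an unadjusted p under 0.05 were 8 for day 9 and 3 for day 11, and DESeq2 called 12 and 2. Over all genes, TPM + 1 gave 45, 974, 1717, 1050, 783, 13 and 876 in the first 7, and TPM + 0.1 gave 77, 1522, 2640, 12, 1470 and 3550 for days 0, 1, 3, 11, 30 and 90. The share called higher moved on TPM + 1 from 93.7 to 71.1% (day 0), 28.5 to 49.4% (day 1), 57.0 to 27.8% (day 5), 66.9 to 42.0% (day 9), 24.3 to 61.5% (day 11), 52.2 to 76.3% (day 30) and 52.1 to 5.7% (day 90). With 0.1 it was 38.8, 31.5, 40.4, 66.7, 69.3 and 3.6% at days 1, 5, 9, 11, 30 and 90. Fits of the compared groups alone called 12 related and 1592 genes in all at day 0, 13 related at day 1, 12 at day 5, 5 and 1291 in all at day 30, and 0 and 2 in all at day 90, where 8 related genes had an unadjusted p under 0.05 and DESeq2 called 14. DESeq2 called 5 related genes at day 0. Without libraries of RNA integrity under 8 the related genes called were 5 at day 0 and 24 at day 90 (1867 in all). Without libraries under 15000000 counts they were 5 at day 0, 11 at day 5 and 26 at day 90 (2162 in all). Lane as a term gave 4 and 730 in all at day 90, and leaving out day 11 wells 1 and 2 gave 862 genes at day 11.

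Leaving out 1 library at a time gave 2, 7, 4 to 8, 4 to 7, 6 to 9, 1 to 2, 2 to 22 and 2 to 22 related genes. Over all genes it gave 252 to 395, 2408 to 2678, 3474 to 3841, 1686 to 2293, 2107 to 2340, 203 to 441, 2017 to 3068 and 709 to 1794. The FOSB change at day 30 ranged from -0.39 (without day 30 replicate 3) to 2.01. A replicate block gave 1 related gene at day 11 and 6 at day 90. Same-numbered wells had correlations of deviations from -0.14 to 0.53 and nothing in the labels ties them together, although many shared a lane (9 of 10 wells numbered 1 were in lane 1, 7 of 11 numbered 2 in lane 2 and 8 of 10 numbered 3 in lane 3). The cause of these differences was not tested.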
